A study of Mus musculus with 6 samples.

Results

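Interferon-stimulated genes (ISGs) are the genes that a cell turns on after an interferon binds its receptor. A set of 35 mouse ISGs was read here, of 55538 features in the deposited count table. The genes were listed by name, with earlier results of these data known. The cells came from lavage of the peritoneum of adult C57BL/6 mice (C57BL/6J in the study's methods), were plated for 1 hour and washed, so that adherent cells remained, and several mice were pooled per library. The 6 libraries, 1 per group, were Mertk+/+ and Mertk-/- cells after a change of medium, and cells of each genotype cultured for 2 h or 6 h with apoptotic cells (ACs), which were human Jurkat T cells killed by UV light. Mertk encodes a receptor through which macrophages (MΦs) take up dying cells, and the Mertk-/- animals, which the titles call MerKD, are a whole-body line on the C57BL/6J background. The count table joins the libraries under barcode numbers 1 to 6, and no label ties a number to a genotype or a time. Genotypes and times were therefore not compared, library numbers were not treated as replicates, and no p-value is given. Mertk itself was read in the MΦs of all 6 library numbers, at 17.4 to 33.9 CPM (UMIs of a gene per 1000000 mouse UMIs), and does not separate them into genotypes here.

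Type I interferons (alpha, beta and relatives) signal through the receptor pair Ifnar1 and Ifnar2, the kinases Jak1 and Tyk2, and factors such as Stat2 and Irf9 that act at a DNA element known as the interferon-stimulated response element (ISRE). Interferon gamma signals through Ifngr1 and Ifngr2, and many of its target genes carry another element, the gamma-activated sequence (GAS). Many ISG products block a step of viral growth, others sense viral nucleic acid or carry the signal, and tissue MΦs are known for a low standing level of several of them.

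The promoters show what the genes share apart from their names. RefSeq promoters on GRCm38.p6, from 250 bases before to 50 after the start, were at hand for 27 of the 35 genes. The ISRE letters GAAANNGAAA, or TTTCNNTTTC when read on the other strand, stood in the promoters of 18 of these 27 genes (66.7%), against 3.99% of 27025 genes in all. The GAS letters TTCNNNGAA, which read the same on both strands, stood in 8 of 27 (29.6%), against 9.55% of all genes. The stretches below belong to genes on which the results turn, and are printed 5′ to 3′ on the strand of the gene with the ISRE letters in capitals.
Isg15, chr4:156200863-156200908, minus strand: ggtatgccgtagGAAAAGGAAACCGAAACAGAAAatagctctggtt
Ifit1, chr19:34640773-34640806, plus strand: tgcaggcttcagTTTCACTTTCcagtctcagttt
Ifit3, chr19:34583361-34583394, plus strand: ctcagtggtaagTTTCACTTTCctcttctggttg
Ifit3b, chr19:34607757-34607790, plus strand: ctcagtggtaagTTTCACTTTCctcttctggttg
Rsad2, chr12:26456551-26456584, minus strand: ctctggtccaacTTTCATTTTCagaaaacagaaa
Oas1a, chr5:120907518-120907557, minus strand: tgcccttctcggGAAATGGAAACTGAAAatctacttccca
Gbp2, chr3:142620592-142620625, plus strand: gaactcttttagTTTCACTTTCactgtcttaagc
Bst2, chr8:71537575-71537614, minus strand: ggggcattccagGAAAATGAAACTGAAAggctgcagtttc
Cxcl10, chr5:92349081-92349114, minus strand: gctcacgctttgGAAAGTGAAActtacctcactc
In Isg15, 3 overlapping matches made a run of 22 bases. The printed stretches of the neighbouring genes Ifit3 and Ifit3b were identical. The windows of Oasl1, Oasl2, Irf7 and Ifi35 held no such match, which says only that these letters were not in these windows.

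Cells were placed in classes by genes that are not among the 35. After the filter on cells, 7665 of 7760 barcodes were kept, and 2773 of them were MΦs by Csf1r, Adgre1 and Fcer1g, 2948 were B cells by Cd79a and Cd79b, and 514 were T/NK cells by Cd3d, Cd3e and Nkg7. MΦs numbered 225 to 690 per library number and B cells 284 to 682, but T/NK cells only 18 to 181, with 40 in library number 5 and 18 in library number 6. Median depths were 4426 UMIs per MΦ, 5416 per B cell and 2813.5 per T/NK cell. All 7 MΦ markers and all 6 B cell markers were read at 5 CPM or more in their own class, as were all 7 T cell and all 5 NK cell markers in the T/NK class. The T/NK class also held RNA of MΦ genes, with Lyz2 at 1914.1 CPM against 245.0 CPM in B cells and 15080.9 CPM in MΦs, and 47 T/NK cells (9.14%) and 101 B cells (3.43%) held 2 or more UMIs of the MΦ class genes. Each of 28 barcode sequences was found in more than 1 library number. Levels are CPM over the cells of a class, given with exact Poisson 95% intervals that cover counting error only. The kit reads 1 tag per molecule at the 5′ end, so that CPM of different genes do not scale with transcript length.

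MΦs held the most ISG RNA of the 3 classes, and most of that excess was Ifitm3. Summed over the 35 genes, the level was 1107.2 CPM in MΦs (1089.7 to 1124.9), 804 CPM in T/NK cells (764 to 847) and 379 CPM in B cells (370 to 388). Without Ifitm3 and Bst2, which encode membrane proteins of the antiviral defence, the order changed, and T/NK cells stood at 652 CPM, MΦs at 476 CPM and B cells at 316 CPM. By library number 1 to 6, the 35 genes summed to 1295.2, 1250.7, 1116.0, 941.0, 615.0 and 1181.8 CPM in MΦs. They summed to 421, 499, 275, 387, 297 and 278 CPM in B cells. MΦs lay above B cells in all 6 numbers, whereas the T/NK values of 941, 893, 740, 819, 379 and 843 CPM overlapped the range of MΦs.

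**Figure D1:**
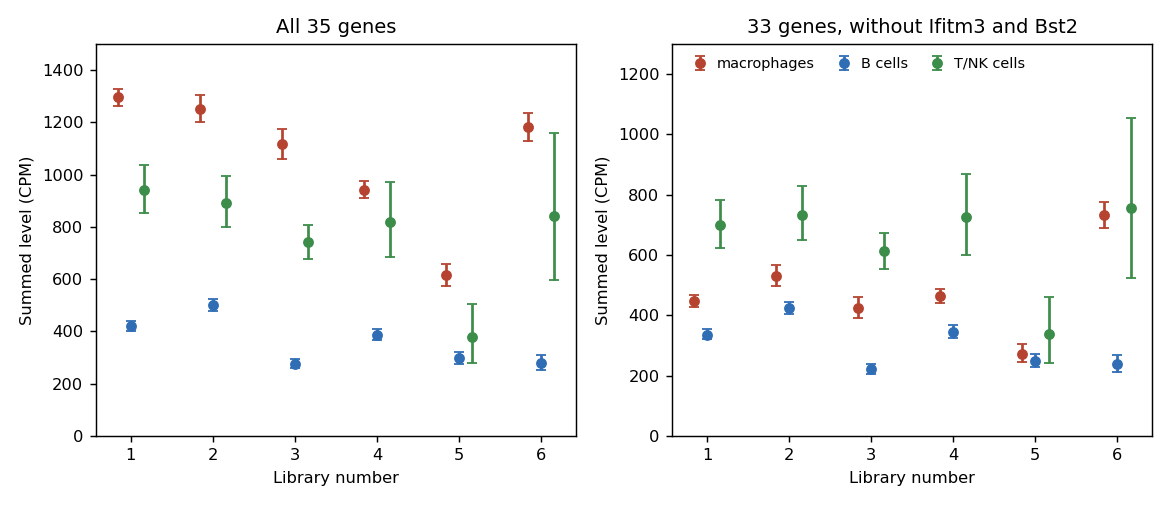
Summed level (CPM) of the 35 genes, left, and of the 33 genes other than Ifitm3 and Bst2, right, by library number for MΦs, B cells and T/NK cells; points are values of 1 library number and bars exact Poisson 95% intervals. MΦs led in the left panel in every library number, and in the right panel T/NK cells were the highest class in every number.

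Of the 35 genes, 25 reached 5 CPM in MΦs, 18 in B cells and 26 in T/NK cells, and the median gene stood at 10.7, 6.81 and 12.1 CPM. These are low levels, and a typical cell held few such molecules. After every cell was thinned to 1500 UMIs, the 35 genes gave a mean of 1.66 UMIs per MΦ, 0.625 per B cell and 1.12 per T/NK cell, and 31.3%, 60.7% and 40.6% of the cells held none. Shallower cells were left out of the thinned values (83 MΦs, 38 B cells and 16 T/NK cells).

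**Figure D2:**
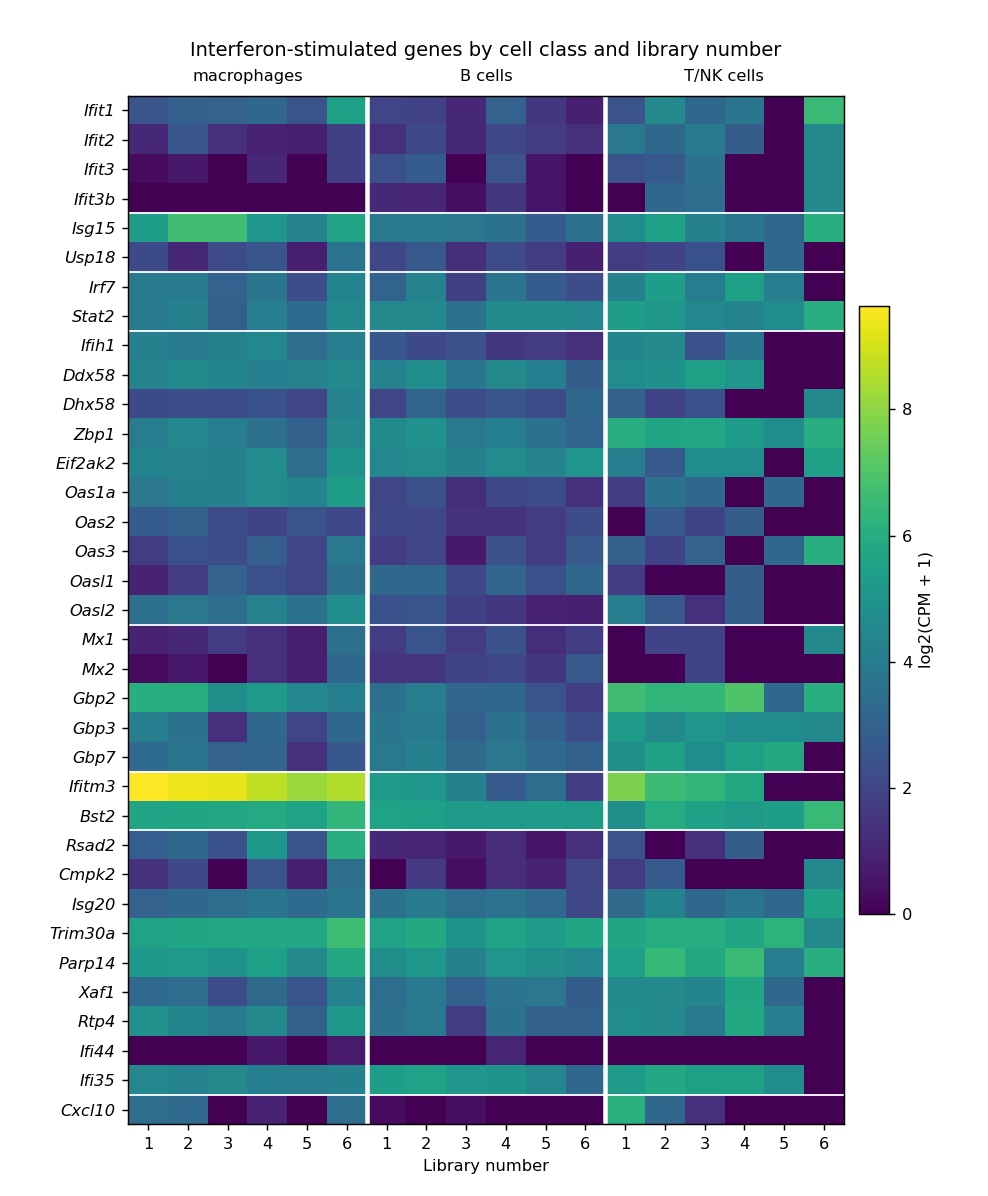
Level of each of the 35 genes, as log2(CPM + 1), in MΦs, B cells and T/NK cells of library numbers 1 to 6; rows are grouped by role, from the IFIT proteins at the top to Cxcl10. Ifitm3 in MΦs is the brightest row, and several rows of the T/NK class drop to 0 in the thin library numbers 5 and 6.

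A gene was called between classes when its pooled CPM differed at least 2-fold, on log2 of CPM + 1, and in the same direction in all 6 library numbers. Between MΦs and B cells, 8 of the 24 genes that averaged 5 CPM or more were called higher in MΦs (33.3%), beside 18.1% of 9394 features in all, and 0 were called lower, beside 20.9%. The 8 were Ifitm3, Rsad2, Oas1a, Ifih1, Oasl2, Gbp2, Isg15 and Ifit1, and the ISRE letters stood in the promoters of 7 of them, all but Oasl2. Among the 12 tested genes with a promoter that were not called, 7 held the letters. Rsad2, Ifit1, Oas1a, Oasl2 and Ifih1 stood at 0.974 to 3.52 CPM in B cells, and met the 5 CPM limit only through MΦs. All features were held to the same limit. At a mean of at least 20 CPM, 3 of 8 tested genes were called higher, beside 20.7% of 5349 features. The median difference was 0.37 log2 units over the 24 genes, 0.31 over all 35 and -0.14 over all features that met the 5 CPM limit. On the pooled 2-fold difference alone, 9 genes were higher, beside 18.7% of features, and 0 lower, beside 21.8%. The other 11 genes averaged under 5 CPM and were not tested.

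Among the membrane proteins, Ifitm3, which blocks the fusion of viruses with endosomes, stood apart. It was read at 800, 670, 640, 417, 295 and 367 CPM in the MΦs of library numbers 1 to 6, and at 37.6, 31.7, 17.7, 5.87, 10.2 and 2.35 CPM in B cells. The ranges did not overlap, and the pooled 576 CPM against 21.6 CPM gave a ratio of 26.6 (24.1 to 29.5). After thinning, 46.7% of MΦs held an Ifitm3 UMI, against 1.92% of B cells and 3.82% of T/NK cells. In T/NK cells Ifitm3 read 215, 97.7, 83.7, 56.3, 0 and 0 CPM, 108 CPM pooled, but the 467 T/NK cells with fewer than 2 UMIs of the MΦ class genes held only 19.4 CPM and the other 47 held 448 CPM. The 2847 B cells chosen in the same way held 7.96 CPM and the other 101 held 291 CPM. Ifitm3 outside MΦs was thus found mostly in the few lymphocytes that also held MΦ genes. Bst2, or tetherin, which holds budding virus at the cell surface, was far more even, at 49, 49.5, 52.1, 59.2, 46.9 and 81.6 CPM in MΦs and 47.4, 44, 36.2, 36.6, 38.9 and 36.8 CPM in B cells. Bst2 lay above B cells in MΦs of all 6 numbers, but the ratio of 1.35 (1.22 to 1.5) was under 2, and T/NK cells stood at 27.2, 61.4, 44.7, 37.5, 41.2 and 88.8 CPM.

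Isg15, a ubiquitin-like protein that is joined to other proteins, was chosen with Ifit1 for full values after they had been seen. It read 41.2, 103, 103, 32.7, 18.5 and 48.8 CPM in MΦs and 13.5, 14.4, 13.2, 11.1, 6.01 and 11.0 CPM in B cells. The MΦ values lay above all B cell values, with a pooled ratio of 4.28 (3.68 to 5.0), and T/NK cells were in between, at 24.7 CPM. Usp18, the protease that removes Isg15 from its targets, stood at only 4.21 CPM in MΦs and 3.14 CPM in B cells, and was too low to test. Ifit1, which binds viral RNA caps, stood at 10.7 CPM in MΦs, 2.97 CPM in B cells and 12.1 CPM in T/NK cells, with a ratio of MΦs to B cells of 3.59 (2.61 to 4.98). Its MΦ values were 4.83, 6.67, 7.23, 8.24, 4.62 and 45 CPM, so that library number 6 stood far above the others. Without the 3 cells richest in Ifit1 in each number, number 6 read 13.6 CPM and the others 0 to 3.85 CPM. Ifit1 was no longer among the called genes without number 6 or with the class rules on thinned cells. The other IFIT genes were not high in MΦs. Ifit2 stood at 1.74 CPM against 2.22 CPM in B cells (ratio 0.786, 0.454 to 1.33), and Ifit3 at 0.726 against 3.08 CPM (0.235, 0.107 to 0.465). Ifit3b had 0 UMIs in MΦs and 17 in B cells. With 0 counts, up to 3 UMIs of Ifit3b (0.218 CPM) remain possible in MΦs. Ifit3 and Ifit3b share 32.3% and 28.0% of their 98-base stretches, so that the split of reads between the pair is uncertain.

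The 10 nucleic acid sensors and OAS genes gave 127 CPM in MΦs, 86.0 CPM in B cells and 141 CPM in T/NK cells, and 3 of the 8 tested were called higher in MΦs than in B cells. Oas1a, whose product makes the 2-5A messenger that activates RNase L, read 13.1, 17.2, 17.4, 24.4, 19.2 and 41.7 CPM in MΦs and 3.04, 4.19, 1.40, 3.26, 3.70 and 1.56 CPM in B cells. No B cell value came near the MΦ values, and the ratio was 6.95 (5.19 to 9.46). Oas1a shares 41.4% of its 98-base stretches with Oas1g, so that reads of the pair may be mixed. Ifih1, which encodes the RNA sensor MDA5, stood at 17.3 CPM against 3.52 CPM, a ratio of 4.91 (3.72 to 6.57). Oasl2 stood at 14.6 against 3.08 CPM, a ratio of 4.73 (3.51 to 6.47). Ddx58, which encodes the RNA sensor RIG-I, and Eif2ak2, which encodes the RNA-activated kinase PKR, had ratios of 1.06 (0.898 to 1.25) and 0.941 (0.806 to 1.10). The sensors of the same class of ligand thus differed, with Ifih1 higher in MΦs and Ddx58 at nearly the same level in both. Oas2 and Oas3 stood at 4.64 and 5.08 CPM in MΦs and 2.60 and 2.65 CPM in B cells, and Dhx58 at 5.44 and 4.87 CPM. Zbp1 stood at 15.5 CPM in MΦs and 19.1 CPM in B cells, a ratio of 0.810 (0.680 to 0.963). Oasl1 leaned to B cells, at 8.26, 8.38, 3.37, 7.83, 4.16 and 8.61 CPM there and 0.921, 2.22, 7.23, 4.12, 3.08 and 10.9 CPM in MΦs. These ranges overlapped, and Oasl1 was lower in MΦs in 4 of 6 numbers, with a ratio of 0.564 (0.402 to 0.784).

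Of the GTPases, Gbp2 was highest in T/NK cells and lowest in B cells. Guanylate-binding proteins are induced above all by interferon gamma, and coat vacuoles that hold microbes. Gbp2 read 66.1, 66.7, 26, 35.6, 21.5 and 16.7 CPM in MΦs and 10.6, 16, 8.14, 8.48, 4.63 and 2.35 CPM in B cells. In T/NK cells it read 102, 80.9, 83.7, 125, 8.25 and 66.6 CPM. MΦs exceeded B cells in every number, with a ratio of 4.66 (3.94 to 5.54). Gbp7 stood at 9.44, 12.2, 7.23, 7.95, 1.54 and 5.14 CPM in MΦs and 13.7, 17.3, 8.98, 13.1, 8.79 and 7.04 CPM in B cells. It was lower in MΦs in all 6 numbers, but the ratio of 0.645 (0.509 to 0.813) missed the 2-fold limit, and 10.1% of its 98-base stretches are shared with other genes. Gbp3 had a ratio of 0.966 (0.771 to 1.21). Mx1 and Mx2, of the dynamin-like GTPases, stood at 2.32 and 1.52 CPM in MΦs and 2.97 and 2.49 CPM in B cells. The GENCODE annotation calls Mx2 a polymorphic pseudogene.

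Rsad2 encodes viperin, a radical-SAM enzyme that stops viral RNA synthesis, and showed the largest ratio after Ifitm3 among the tested genes. It read 6.45, 8.34, 4.34, 33.9, 4.62 and 66.2 CPM in MΦs, and 1.09, 1.05, 0.561, 1.31, 0.463 and 1.56 CPM in B cells. All 6 MΦ values exceeded all B cell values, and the ratio was 20.4 (12.6 to 34.9). Single cells weighed on the highest values. Without the 3 cells richest in Rsad2 in each library number, the MΦ values were 3.01, 2.24, 1.47, 18.9, 1.55 and 24.6 CPM. Trim30a, a member of the tripartite-motif family, was even, at 45.6, 51.1, 52.8, 53.6, 53.9 and 99.6 CPM in MΦs and 46.3, 56.3, 30.3, 47.6, 37.9 and 50.1 CPM in B cells. T/NK cells read 49.9, 61.4, 63.5, 50, 74.2 and 22.2 CPM, and the 3 ranges of Trim30a overlapped. Parp14, an ADP-ribosyltransferase, read 34.8, 35.6, 30.4, 44.2, 22.3 and 55.9 CPM in MΦs and 26.5, 33.3, 17.7, 31.7, 25.9 and 21.9 CPM in B cells, and was higher in MΦs in all numbers but 5, with a ratio of 1.42 (1.26 to 1.61). Ifi35 was the tested gene that leaned most to B cells. It read 21.0, 18.9, 22.4, 16.8, 15.4 and 18 CPM in MΦs and 39.8, 47.7, 31.4, 31.0, 21.3 and 8.61 CPM in B cells, and was lower in MΦs in 5 of 6 numbers, with a ratio of 0.557 (0.480 to 0.644). In T/NK cells Ifi35 read 38.5, 55.8, 43.3, 43.8, 24.7 and 0 CPM. Rtp4, a chaperone of receptors, had a ratio of 2.52 (2.08 to 3.05), but was lower in MΦs in 1 number and was not called, and it shares 9.37% of its 98-base stretches with an overlapping gene model. Xaf1 and Isg20, a promoter of cell death and an exonuclease, had ratios of 0.874 (0.693 to 1.10) and 0.888 (0.708 to 1.11). Cmpk2, a nucleotide kinase, had 46 UMIs in MΦs and 19 in B cells, and Ifi44 had 3 in each.

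Neither signalling gene was called between any of the classes. Stat2, a transcription factor that acts at the ISRE with Irf9, stood at 15.2 CPM in MΦs, 20.3 CPM in B cells and 29.7 CPM in T/NK cells. Irf7, the factor that raises interferon alpha genes, stood at 13.1, 9.25 and 23.6 CPM.

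**Figure D3:**
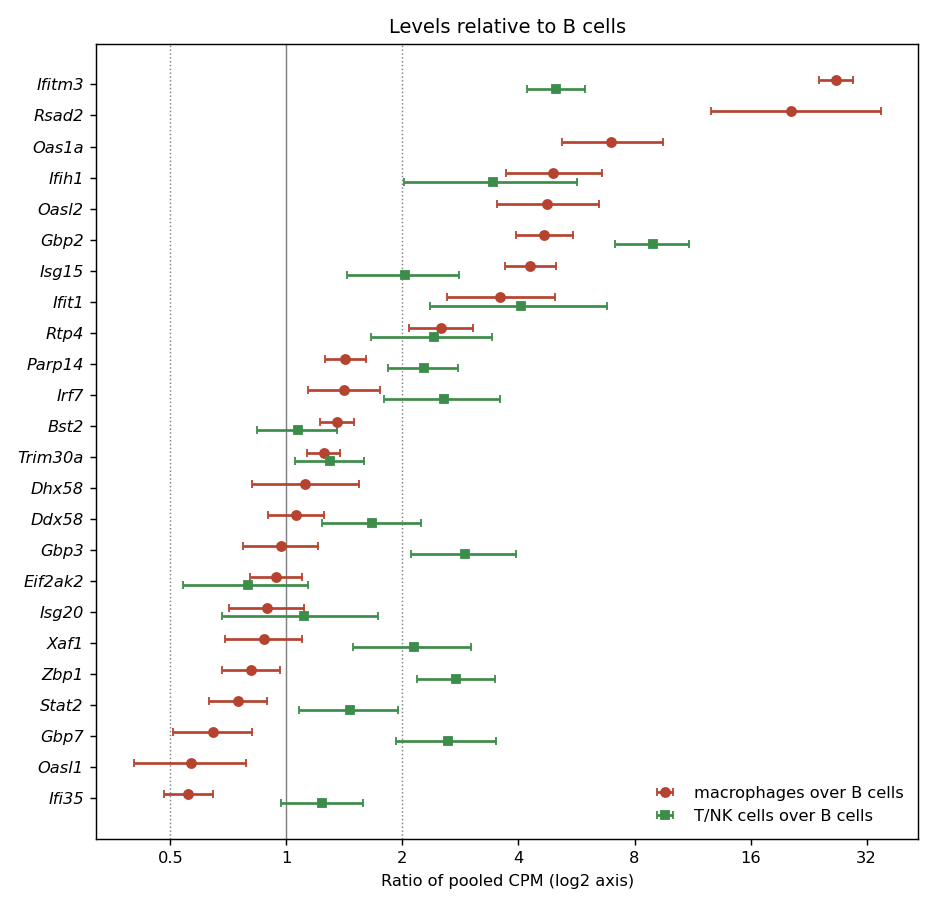
Ratio of pooled CPM to that of B cells, on a log2 axis, for the 24 genes tested in MΦs (circles) and those of them tested in T/NK cells (squares); bars are exact conditional 95% intervals and dotted lines mark 2-fold either way. Ifitm3 and Rsad2 lie far to the right in MΦs, whereas Gbp3, Gbp7 and Zbp1 lie near or under 1 in MΦs and above 2 in T/NK cells.

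T/NK cells exceeded B cells in most of the tested genes, and the called ones were a pair of guanylate-binding proteins and Zbp1. Zbp1 is a sensor of Z-form nucleic acid. Of 22 tested genes, 21 lay above 0 on the log2 scale and 1 below, beside 53.8% of all features above 0. The median was 1.17 log2 units over these genes, 0.93 over all 35 and 0.05 over all features. Cxcl10, Ifit1, Ifit2, Ifit3 and Ifih1 stood at 0.108 to 3.52 CPM in B cells, and met the 5 CPM limit only through T/NK cells. Among the untested genes, Oasl1, Mx2, Mx1, Ifi44 and Dhx58 lay lower in T/NK cells (-1.9 to -0.12) and the rest higher. Called were 3, namely Gbp2, Gbp3 and Zbp1 (beside 5.60% of 9706 features), and 0 were called lower (beside 6.57%). On the pooled 2-fold difference alone, 13 were higher, beside 12.4% of features, and 0 lower, beside 8.87%. Gbp2 stood at 85.8 CPM against 9.63 CPM (ratio 8.91, 7.14 to 11.1), Zbp1 at 52.8 against 19.1 CPM (2.76, 2.18 to 3.47) and Gbp3 at 30.2 against 10.4 CPM (2.90, 2.11 to 3.93). Larger pooled ratios than those of Zbp1 and Gbp3 belonged to genes that were not called, Ifit2 (5.21, 2.92 to 9.02), Ifitm3 (5.01, 4.2 to 5.95), Ifit1 (4.07, 2.36 to 6.78), Ifih1 (3.44, 2.02 to 5.66) and Cxcl10, which had 34 UMIs against 2. Zbp1 read 63.5, 50.2, 54.8, 37.5, 24.7 and 66.6 CPM in T/NK cells and 23.7, 28.8, 13.5, 17, 11.1 and 7.82 CPM in B cells, and the ranges overlapped only through number 5. Gbp7 read 27.2, 44.6, 24.5, 43.8, 57.7 and 0 CPM in T/NK cells, all above B cells but the last, which had 18 cells. Parp14 read 43.1, 86.5, 57.7, 93.8, 16.5 and 66.6 CPM and fell under B cells only in number 5. The call thus depended on the thinnest numbers. Without library numbers 5 and 6, 12 genes were called higher, beside 9.57% of 9689 features. With the class rules applied to thinned cells none was, beside 3.0% of 9599 features. With cells of both lymphocyte rules kept 1 was, beside 4.02% of 9640 features. Without the 47 cells that held MΦ class genes, Gbp2 stood at 80.5 CPM, Zbp1 at 59.0 CPM and Gbp3 at 29.1 CPM, close to the values with them, whereas Cxcl10 stood at 2.78 CPM in place of 18.7 CPM.

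Against T/NK cells, MΦs were called higher in Ifitm3, Rsad2 and Oas1a, 3 of 25 genes (beside 17.0% of 9642 features). They were called lower in 2, Zbp1 (ratio of T/NK cells to MΦs 3.41, 2.66 to 4.37) and Gbp3 (3.0, 2.15 to 4.12), beside 13.9%. Both shares lay under those of all features. On the pooled 2-fold difference alone, 5 genes were higher, beside 19.3%, and 7 lower, beside 24.5%. Gbp7 (4.06, 2.91 to 5.63) and Ifit2 (6.63, 3.51 to 12.4) were higher in T/NK cells in 5 of 6 numbers and were not called. With the class rules on thinned cells, 5 of 26 genes were higher and 0 lower in MΦs, beside 17.1% and 9.25% of 9724 features.

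Cxcl10, a chemokine that draws T cells through Cxcr3, rested on very few cells. All 79 UMIs of MΦs came from 18 cells, 3 of which held 51.9% of them, and 34 UMIs of T/NK cells came from 5 cells, 1 of which held 26. B cells had 2 UMIs. In MΦs Cxcl10 read 10.1, 8.89, 0, 0.883, 0 and 10.3 CPM by library number, and the class values are those of a handful of cells.

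MΦs were split by the transcription factors Gata6, of large peritoneal MΦs (LPMs), and Irf4, of small peritoneal MΦs (SPMs). There were 635 cells with Gata6 UMIs only, 255 with Irf4 UMIs only (14 to 113 per library number), 22 with both and 1861 with neither, so that the split leaves most cells unplaced. Summed LPM markers were 2485.0 CPM in Gata6-only and 393 CPM in Irf4-only MΦs, and summed SPM markers were 2260.6 and 19158.5 CPM. Irf4-only cells also carried more of the T cell markers (306 against 18.9 CPM, with 1 of 7 at 5 CPM or more and Cd3d at 0), of the conventional dendritic cell markers (254 against 10.2 CPM, with Xcr1 and Clec9a at 0) and of the plasma cell markers (674 against 22.6 CPM, with Jchain at 0). The part of these cells in the ISG levels was not tested.

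Irf4-only MΦs had higher pooled levels of several antiviral genes, and a handful of cells carried much of it. Summed over the 35 genes they stood at 1360.9 CPM (1295.7 to 1428.6) and Gata6-only MΦs at 1038.6 CPM (1006.5 to 1071.5). Without Ifitm3 and Bst2 the values were 699 and 380 CPM. Ifitm3 itself showed no such difference, at 582 and 607 CPM (ratio 0.959, 0.880 to 1.04). Pooled, 9 of 26 genes were at least 2-fold higher in Irf4-only cells (beside 10.8% of 8825 features) and 0 lower (beside 7.57%). Among the 9 were Rsad2 at 61.7 against 7.36 CPM (8.39, 5.36 to 13.5), Ifit1 at 25.9 against 2.63 CPM (9.84, 4.7 to 22.5) and Isg15 at 114 against 32.1 CPM (3.56, 2.77 to 4.59). Ifit1, Oas3, Oasl1 and Dhx58 stood at 1.84 to 4.47 CPM in Gata6-only cells, and met the 5 CPM limit only through Irf4-only cells. None of the 9 kept 1 direction in all 6 numbers, so that 0 were called higher (beside 5.31%) and 0 lower (beside 4.01%). By library number, the 33 genes without Ifitm3 and Bst2 summed in Irf4-only cells to 348, 1567.5, 394, 1087.1, 125 and 831 CPM, and in Gata6-only cells to 386, 441, 330, 333, 306 and 623 CPM. Irf4-only cells lay lower in numbers 1 and 5, and 113 of the 255 came from number 6, against 55 of the 635 Gata6-only cells. The Irf4-only values of numbers 2 and 4 were 445 and 444 CPM when 1 and 2 cells, described next, were taken out, and the pooled values without such cells were 510 and 376 CPM. Without them, 6 of 24 genes remained at least 2-fold higher (beside 11.0% of 8831 features): Dhx58, a helper of the RNA sensors, at 12.7 against 3.16 CPM, Rsad2 at 22.9 against 7.37 CPM, Isg15 at 73.7 against 28.2 CPM, and Ifit1, Ifih1 and Zbp1. In the other direction, Isg20 stood at 3.39 against 8.42 CPM (beside 7.62% of features). Ifit1 and Dhx58 again met the 5 CPM limit only through Irf4-only cells. Oas3 and Oasl1 averaged under that limit and left the count, though Oasl1 still stood at 5.93 against 1.84 CPM. The removal lowers Isg15 and Ifit1 by its construction.

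**Figure D4:**
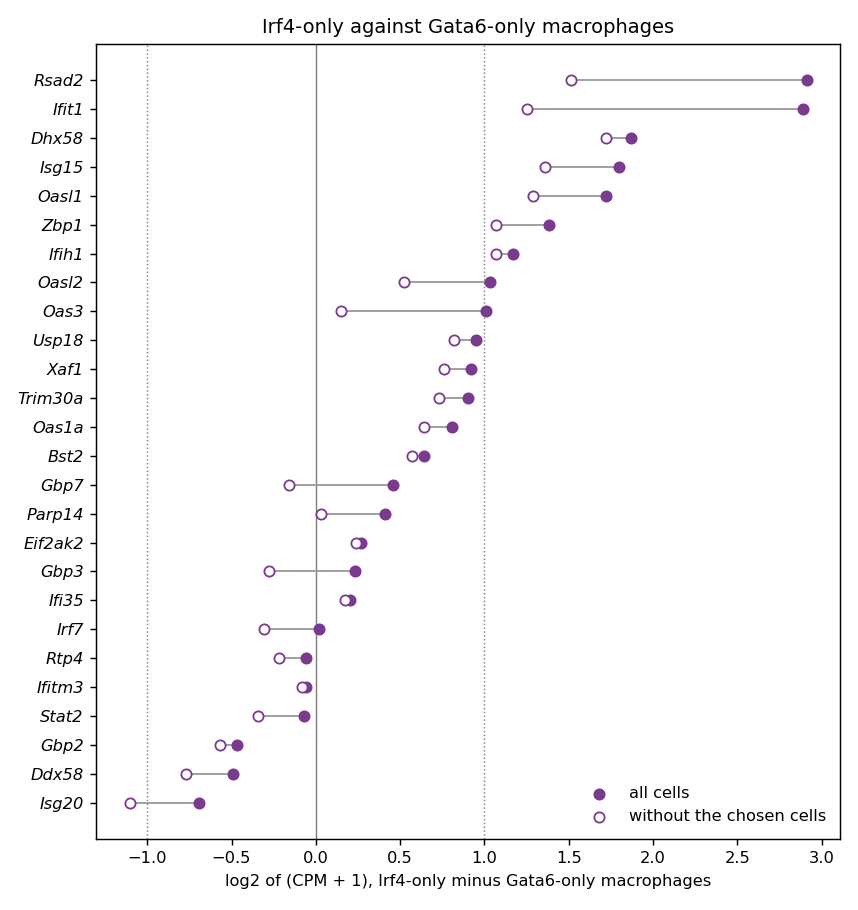
Difference in log2(CPM + 1) between Irf4-only and Gata6-only MΦs for the 26 genes averaging 5 CPM or more, over all cells (filled) and without the cells chosen for 3 or more UMIs of the 5 choosing genes (open); dotted lines mark 2-fold. Rsad2 and Ifit1 move most when the few chosen cells are left out, and Ifitm3 stays near 0.

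Single MΦs with many ISG molecules were rare. To find them without using all genes, cells thinned to 1500 UMIs were chosen for 3 or more UMIs of Ifit1, Ifit2, Ifit3, Ifit3b and Isg15 together, and the other 30 genes were held out. In MΦs 13 of 2690 cells were chosen (0.483%, exact binomial 95% interval 0.258 to 0.825%), in B cells 3 of 2910 (0.103%, 0.0213 to 0.301%) and in T/NK cells 2 of 498 (0.402%, 0.0487 to 1.44%). The 13 MΦs came from library numbers 1 to 6 as 2, 3, 1, 2, 0 and 5 cells. Of the 247 Irf4-only cells 5 were chosen (2.02%, 0.660 to 4.66%), of the 631 Gata6-only cells 1 (0.158%, 0.00401 to 0.880%) and of the 1790 with neither 7 (0.391%, 0.157 to 0.804%). None of the 13 was called a doublet by Scrublet, and 30 MΦs in all held 2 or more such UMIs, so that the limit cuts a range.

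Pooled over the same cells, the held-out genes were high. They stood at 10102.6 CPM (8741.0 to 11616.1) in the 13 MΦs and at 996 CPM (966 to 1027.8) in the other MΦs, a ratio of 10.1 (8.74 to 11.7), and without Ifitm3 the ratio was 19.1. The cells with 17 or more choosing UMIs held 19, 42 and 65 of the 197 held-out UMIs, and the interval does not cover this spread over cells. Rsad2 stood at 2769.2 against 13.9 CPM, Cxcl10 at 821 against 8.22 CPM, Zbp1 at 513 against 14.7 CPM and Oasl1 at 308 against 2.99 CPM. Rsad2 had 54 UMIs in 6 of the 13 cells, 25 of them in 1. Cxcl10 had 16 in 2 cells, 15 of them in 1. Zbp1 had 10 in 6 cells, and Oasl1 had 6 in 3 cells, 4 of them in 1. Ifitm3 differed less, at 1179.5 against 528 CPM, a ratio of 2.23. Ifi35, Oas2 and Ifi44 had no UMI in the 13 cells, and Dhx58, Xaf1 and Gbp7 had 1 each, which is 51.3 CPM. The chosen cells were not alike among themselves, and held 0 to 65 held-out UMIs with a median of 7, against a median of 1 in the other MΦs. Full counts show the extremes. A cell of library number 6 held 86 held-out UMIs of 7700 in all, with 35 of Rsad2, 26 of Ifit1 and 4 of Isg15, and a cell of library number 2 held 55 of 5181, with 8 of Rsad2, 7 of Ifit1 and 30 of Isg15. Another, again of library number 6, had 15 UMIs of Cxcl10 and 18 of Rsad2 among only 1513, and 2 of Isg15. Isg15 and Ifit1 thus did not rank these cells alike. A single B cell of library number 1 had the same kind of profile, with 67 held-out UMIs of 5123 from 20 of the 30 genes, among them 4 of Rsad2 and 15 of Ifitm3. Over the 22 other induced genes of the pathway list plus Irf9, the 13 MΦs held 4923.1 CPM and the other MΦs 1289.8 CPM, a ratio of 3.82.

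**Figure D5:**
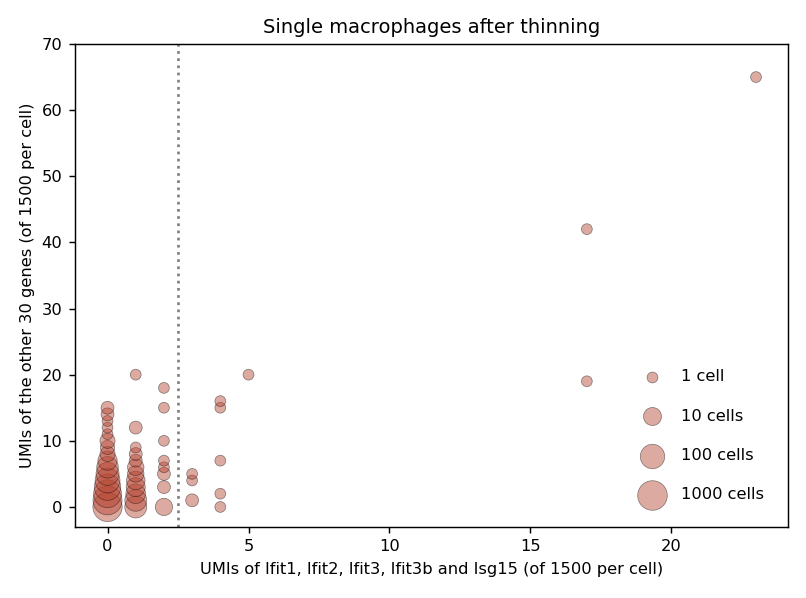
UMIs of the 5 choosing genes (x axis) and of the 30 held-out genes (y axis) in single MΦs thinned to 1500 UMIs each; circle size grows with the number of cells at a point and the dotted line marks the limit of 3 choosing UMIs. Most cells lie at the lower left, and 3 cells with 17 or more choosing UMIs lie apart at the right.

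Among the 3 classes the spread over cells was widest in MΦs, and it was lower in Gata6-only MΦs than in the other MΦ groups. The variance of the 35-gene count over its mean was 5.08 in MΦs, 2.12 in B cells and 1.99 in T/NK cells, and without Ifitm3 and Bst2 it was 7.74, 1.98 and 1.93. The richest 1% of MΦs held 20.1% of the UMIs of those 33 genes, against 12.2% in B cells and 8.67% in T/NK cells. In 1 MΦ there were 84 of these UMIs, against a mean of 0.783 per MΦ. For the 35 and the 33 genes, Gata6-only MΦs had a variance over mean of 1.91 and 1.69, under B cells and T/NK cells. Irf4-only MΦs stood at 9.87 and 14.5, and MΦs with neither gene at 5.16 and 7.84. Few cells weigh on these values, as the largest 35-gene count in 1 cell was 59 in Irf4-only MΦs and 88 in MΦs with neither. In Gata6-only MΦs it was 15. The share of chosen cells in Gata6-only MΦs (0.00401 to 0.880%) overlapped that of all MΦs (0.258 to 0.825%), so that a lack of such cells was not shown.

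Within MΦs the median gene of the 25 at 5 CPM or more differed by 1.72 log2 units between its highest and lowest library number, and the median of 8710 features, not matched on level, by 0.93. The highest number exceeded the lowest at least 4-fold for 11 of 25 genes, beside 7.12% of all features, and in B cells for 5 of 18, beside 6.27% of 9255. Library number 6 was the highest for 16 of the 25 (64.0%, beside 38.2% of features), and number 5 the lowest for 13 (beside 14.8% of features). Set against the other 5 numbers pooled, number 6 was at least 2-fold higher in 10 of 29 genes, beside 7.74% of 8878 features. These were Ifit1, Mx1, Oas1a, Oas3, Oasl1, Rsad2, Usp18, Dhx58, Cmpk2 and Xaf1, and 1 gene, Gbp2, was at least 2-fold lower (beside 3.05%). All 10 remained so without the 3 cells richest in each gene in each number, and also without the chosen cells. A gene or feature entered such a count when its levels in the number and in the others averaged 5 CPM or more. Mx1, Oas3, Oasl1, Usp18, Dhx58 and Cmpk2 stood at 1.23 to 4.01 CPM in the others, and entered only through number 6. This limit was not applied again after the removals of cells, and Mx1, Oasl1 and Cmpk2 fell under it in both. No share over all features was computed for the removals. Number 6 MΦs had the most Irf4 RNA (209 CPM, against 18.5 to 114 CPM) and the lowest median depth (2861.0 UMIs), and the part of either in these levels was not tested. Within Gata6-only cells the 33 genes summed to 623 CPM in number 6 and 306 to 441 CPM in the others, and within cells of neither gene to 730 CPM and 270 to 504 CPM, so that number 6 was highest in both. Without the chosen cells its lead in cells of neither gene was small, at 511 CPM against 270 to 499 CPM. The 55 Gata6-only cells of number 6 stood at 16.4 CPM for the 4 IFIT genes together, on 3 UMIs. They read Ccr2, an SPM marker, at 60.2 CPM, against 0 to 1.07 CPM in Gata6-only cells of the other numbers. Their Gata6 level (377 CPM) was the highest, and Cd74, another SPM marker, lay within the range of the others at 186 CPM. The part of such differences in the ISG levels was not tested.

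In B cells of number 6, the 10 genes that were higher in its MΦs did not share a direction. Cmpk2, Oas3, Dhx58, Rsad2 and Oasl1 differed from the other 5 numbers by 0.32 to 1.14 log2 units. Ifit1, Mx1, Oas1a, Usp18 and Xaf1 differed by -1.27 to -0.26. All but Oasl1 and Xaf1 stood under 5 CPM in the pooled B cells. Of 19 genes tested in number 6 B cells, 8 others were at least 2-fold lower than in the other 5 numbers, beside 6.07% of 9320 features. None was higher, beside 9.94%. The 8 were Isg20, Irf7, Ifi35, Ddx58, Zbp1, Ifitm3, Gbp2 and Gbp3. Ifi35 read 8.61 CPM there against 21.3 to 47.7 CPM in the other numbers, and Gbp2 was low in both MΦs and B cells of number 6. In number 5, MΦs were at least 2-fold lower in 11 of 22 genes, beside 2.37% of 8663 features, and 0 were higher, beside 0.889%. The 11 were Ifit1, Isg15, Irf7, Rsad2, Rtp4, Zbp1, Ifitm3, Gbp2, Gbp3, Gbp7 and Eif2ak2, and without the chosen cells all but Ifit1, itself a choosing gene, remained so. The 5 CPM limit was not applied again there, and Gbp7, at 1.54 against 8.13 CPM, averaged under it. B cells of number 5 were lower in 2 of 18, Ifitm3 and Gbp2, beside 1.25%, and higher in 0, beside 0.608%. Ifitm3 in MΦs followed another order, with numbers 1 to 3 at 640 to 800 CPM and numbers 4 to 6 at 295 to 417 CPM, and Gbp2 was highest in numbers 1 and 2. Isg15 was highest in numbers 2 and 3, where 9.48% and 13.8% of thinned MΦs held a UMI against 1.92 to 4.99% in the other numbers. Which genotype and time these numbers stand for is not known here.

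Other genes of the pathway were read from a list of 70 names, of which 69 had a row. No interferon alpha gene and no Ifnb1 had a UMI. Of 21 ligand genes 3 had any, with 26 UMIs of Ifng, 8 of Ifnk and 1 of Ifnz over all barcodes, and of the Ifng UMIs 12 lay in B cells, 8 in T/NK cells and 2 in MΦs. Of the receptors, Ifnlr1 had 0 UMIs in MΦs and T/NK cells and 3 in B cells. Ifnar1 and Ifnar2 stood at 152 and 146 CPM in MΦs, 51.5 and 37.5 CPM in B cells and 95.1 and 67.1 CPM in T/NK cells, and both were called higher in MΦs than in B cells, as were Ifngr2 and Il10rb. Ifngr1 was called higher in T/NK cells, at 694 CPM against 44.0 CPM in B cells and 59.2 CPM in MΦs. Of the factors, Irf1 was called higher in T/NK cells (106 CPM) than in B cells (35.6 CPM) and MΦs (45.1 CPM). Irf8 was highest in B cells, at 253 CPM against 106 CPM in MΦs and 100 CPM in T/NK cells. Of the feedback inhibitors, Socs3 was called higher in MΦs (264 CPM) and in T/NK cells (303 CPM) than in B cells (98.8 CPM).

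The pathway list as a whole showed no single direction. Of 43 tested genes 9 were called higher and 8 lower in MΦs than in B cells, beside 18.1% and 20.9% of all features. Of 44 tested 10 were higher and 6 lower in T/NK cells than in B cells, beside 5.60% and 6.57%. Among the 22 other induced genes, 3 were called higher in MΦs than in B cells, among them Trim25 (126 against 49.1 CPM) and Ifi204 (48.3 against 5.68 CPM), and 4 lower, among them Ly6e (84.1 against 1186.5 CPM) and Ly6a (7.18 against 915 CPM). Called higher in T/NK cells than in B cells were 5 of them, among them Samhd1 (253 against 81.7 CPM) and Ifi203 (128 against 53.3 CPM). Between Irf4-only and Gata6-only MΦs, 5 of 43 genes were called higher and 2 lower (beside 5.31% and 4.01%), with Slfn2 at 765 against 332 CPM, Trim25 at 240 against 100 CPM, and Socs3 lower at 112 against 290 CPM.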

How the data were processed

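The 6 libraries were made with a 10x Genomics 5′ kit, and the authors processed them with Cell Ranger (2.2 per the labels) against a joined human and mouse reference, with STAR as aligner and Seurat 3.0 downstream, also per the labels, while the study's methods name other versions of both. The deposited table holds raw UMI counts of mouse genes per cell barcode, as whole numbers, for 55538 features and 7760 barcodes (40172124 UMIs), and every column was used (0 left out). The barcode number, 1 to 6, is not tied to a sample.

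Barcodes were kept if 500 or more genes were seen, if the log of that number divided by the log of the UMIs reached 0.8, and if no more than 10% of UMIs were mitochondrial. Classes were set by UMIs per cell: B cells by 4 or more of Cd79a and Cd79b, T/NK cells by 2 or more of Cd3d, Cd3e and Nkg7, and macrophages by 2 or more of Csf1r, Adgre1 and Fcer1g with at most 2 of the B cell and 1 of the T/NK genes. The 153 cells that met both lymphocyte rules were left out of the classes. Scrublet (scanpy 1.11.5) called 47 doublets (0.606%), which were kept and taken out as an alternative. UMIs were summed per class, and CPM, exact Poisson intervals and exact conditional intervals of ratios were computed with Python 3.11.15, numpy 2.4.6, scipy 1.17.1 and pandas 2.3.3. Features with a mean of 5 CPM over both classes entered a comparison, with 1 CPM added before log2. Cells were thinned to 1500 UMIs for shares and single-cell counts. Figures were drawn with matplotlib 3.10.9. The interval of a ratio and the call rule were checked on simulated counts of macrophages and B cells, and the thinning on cells of the table. The other calculations were not checked in this way.

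Values by library number are given for the 6 genes with the highest mean class CPM and the 3 with the largest ratio of macrophages to B cells each way. Pathway genes named are among the called ones with the highest CPM in each part of the list, of which 1 gene is not reported here. The members and lists were chosen with earlier results of these data known. Promoter and gene positions are on GRCm38 (RefSeq and GENCODE vM21), and gene overlap was read as shared stretches of 98 bases.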

Additional observations from a re-analysis of the deposited data

Results flagged for a closer look

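ISG RNA was also read in barcodes outside the 3 classes, which no comparison used. The 1277 kept cells that met no class rule held 405.0 CPM of the 35 genes together (386 to 424), with Ifitm3 at 81.3 CPM and a median depth of 2735.0 UMIs, where 3 UMIs would be 0.699 CPM. The 153 cells that met both lymphocyte rules held 415.0 CPM (384 to 447), with Ifitm3 at 23.5 CPM and a median depth of 10045.0 UMIs, where 3 UMIs would be 1.86 CPM.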

How the results depend on the processing

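No paired analysis was possible because no test was run, though the call rule compares classes within each library number. Summed over the genes, leaving out 1 library number at a time gave 1020.7 to 1161.5 CPM in MΦs, 348 to 404 CPM in B cells and 761 to 844 CPM in T/NK cells. Without Ifitm3 and Bst2 the sums were 476, 316 and 652 CPM, which put T/NK cells above MΦs, and MΦs without the chosen cells stood at 1064.0 CPM. The ratio of the highest to the lowest number, 2.11 in MΦs, was 1.84 in Gata6-only and 3.79 in Irf4-only cells. Of the 8 genes higher in MΦs than in B cells (beside 18.1% of features), 3 were left at a mean of at least 20 CPM (beside 20.7%), where fewer genes were tested. With class rules on thinned cells and without number 6, 7 were left, without Ifit1 (beside 18.7% and 18.4%). Ifit1 stood at 5.18 against 2.81 CPM without the chosen cells. Higher in T/NK cells than in B cells were 3 genes (beside 5.60% of features). They were 1 with cells of both lymphocyte rules kept (beside 4.02%) and 0 with class rules on thinned cells (beside 3.0%). On the pooled fold alone they were 13 (beside 12.4%), and without numbers 5 and 6 they were 12 (beside 9.57%). Without single numbers they were 3 to 6 (beside 5.85 to 8.21%), with 6 without number 5 and also without number 6. Lower were 0 (beside 6.57%), and 1, Oasl1, with all genes that had any UMI (beside 4.73%). Of MΦs against T/NK cells, the 3 higher genes (beside 17.0%) became 5 with class rules on thinned cells (beside 17.1%). They became 1 at a mean of at least 20 CPM (beside 21.0%) and 5 on the pooled fold alone (beside 19.3%). The 2 lower genes (beside 13.9%) became 0 on thinned rules (beside 9.25%) and 7 on the fold alone (beside 24.5%). They became 6 without numbers 5 and 6 (beside 21.9%). Without single numbers they became 2 to 5 (beside 14.1 to 19.5%), with 5 without number 6. For Irf4-only against Gata6-only cells, 0 higher (beside 5.31%) became 9 on the fold alone (beside 10.8%) and 2 without numbers 5 and 6 (beside 7.05%). Without single numbers it became 0 to 2 (beside 5.38 to 6.29%). The 0 lower (beside 4.01%) became 0 to 1, with 1 without number 4 (beside 5.15%). Without the chosen cells the log2 difference changed sign for Irf7 (0.02 to -0.31), Gbp3 (0.23 to -0.28) and Gbp7 (0.46 to -0.16), and among untested genes for Ifit3 and Cxcl10. The share of MΦs chosen, 0.483%, was 1.13% at 2500 UMIs, 2.63% without thinning, 1.12% at 2 and 0.149% at 5 or more choosing UMIs. The ratio of held-out genes, 10.1, was 12 at 1000 and 3.78 at 2500 UMIs, 2.61 without thinning, 6.07 at 2 and 24.2 at 5 choosing UMIs, and 8.11 to 12.1 without single numbers. The cause of these shifts was not tested, apart from the smaller sets named. The fold-alone rule, the removal of numbers 5 and 6 and that of the chosen cells were picked after seeing the data. Depth limits genes under 5 CPM most, since 3 UMIs are 1.65 CPM in T/NK cells and 2.5 CPM in Irf4-only MΦs.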
